A study of Rattus norvegicus with 24 samples.

Results

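The 12 arrays described here hold left ventricular RNA from rats with an operated myocardial infarction (MI), 6 taken on day 7 and 6 on day 1 after surgery. They were chosen by their titles from 24 arrays in all, and the other 12 came from sham-operated rats on the same days. Each array measured total RNA of 1 sample. Per the labels, the MI samples were left ventricle and septum from which the infarct zone had been removed, and the sham samples were left ventricle and septum whole. The arrays therefore compare the surviving muscle of infarcted hearts at an early and a later time, not the infarct itself. Strain, sex and age of the rats, and how the infarct was made, are not given here. Whether every array held RNA of a different rat is not stated either, so the tests gauge only the variation among these samples, part of which may be technical.

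When a coronary artery is closed, heart muscle downstream of it dies. Inflammatory cells then clear the dead tissue, and fibroblasts later replace it with a collagen scar. The muscle outside the infarct survives and takes over the load, and over the following days its cells enlarge, its matrix thickens and its gene expression shifts. A comparison of day 7 with day 1 in that muscle asks which transcripts are more and which are less abundant once the acute phase has passed. In a sham operation the chest is opened and the artery is not closed, so changes between the days after sham surgery also include recovery from the surgery.

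The table has 1185 probes as positive linear intensities, of which 702 have R numbers and 483 RG numbers. The files do not pair these IDs with genes, and 0 of them matched the rat gene table at hand. Probes are therefore described by ID and by their values. The labelled tissue could not be checked against heart markers, the gene lists drawn up for heart tissue could not be tested, and no sequences are shown. Of the cells of the 12 MI columns, 61.3% were blank. Why a cell was left blank is not known, so blanks were treated as missing values, from which no level was inferred.

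The 2 days differed in how much of the table was filled. Day 7 arrays listed 492 to 619 probes, with a mean of 552 ± 42.9 (SD, n = 6). Day 1 arrays listed 200 to 526 probes, with a mean of 364 ± 132 (SD, n = 6). The mean difference was 188 probes (two-sided exact permutation p = 0.00649). The day 1 arrays fell into 2 sets. Arrays A510, A511 and A512 listed 296, 200 and 251 probes, and A506, A537 and A538 listed 452, 526 and 461. The arrays that listed under 300 probes are called the sparse arrays below. The sham day 1 arrays A507, A508 and A509 were sparse too, at 141, 174 and 197 probes. The sparse arrays thus carry consecutive title numbers, A507 to A512, across both operations. The permutation treats arrays as exchangeable and takes no account of this. Without A510 to A512 the difference between the days was 72.7 probes and did not pass (two-sided exact permutation p = 0.0714).

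Level and listing moved together on the sparse arrays for the probes listed everywhere, but not for the median of all listed values. As deposited, that median was 97.1, 100.1 and 107.5 on A510, A511 and A512. On A506, A537 and A538 it was 98.4, 96.45 and 100.6, and on the 6 day 7 arrays 91.1 to 100. Over the 94 probes listed on all 24 arrays, the geometric mean of the deposited intensities was 247, 171 and 233 on A510, A511 and A512. It was 298, 333 and 335 on A506, A537 and A538, and 260 to 309 on the 6 day 7 arrays. Each array's log2 values were therefore shifted so that the mean over these 94 probes was equal on all arrays. The resulting values are called scaled intensities, and all levels and differences below are on that scale unless the deposited scale is named. By construction, the 94 probes have no mean change between the days, so every change reported here is relative to them.

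**Figure D1:**
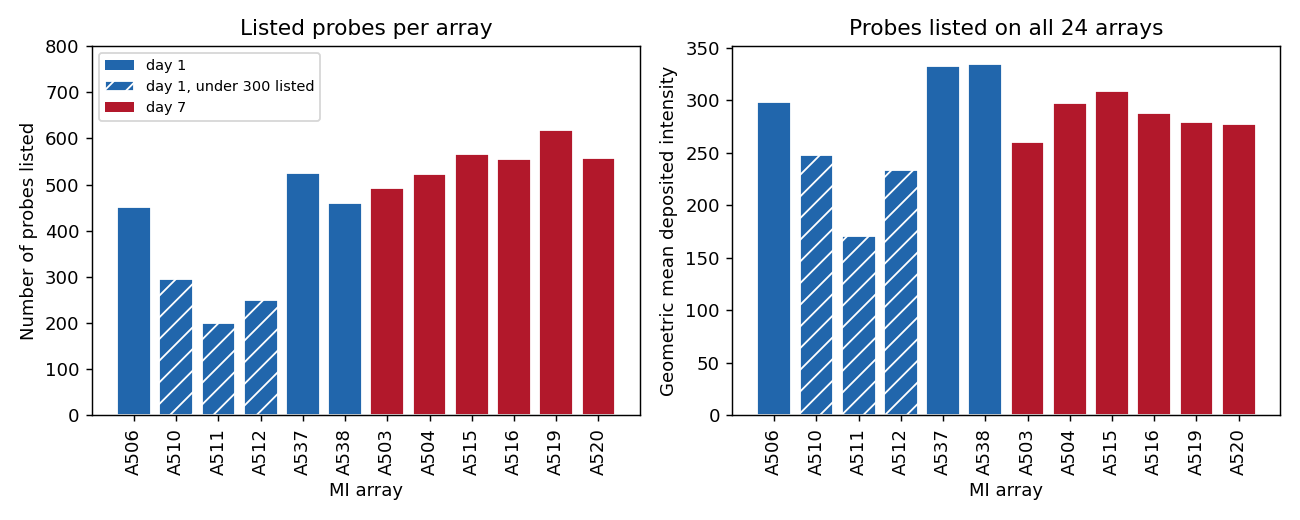
Each bar is 1 MI array, named by its title, with day 1 in blue and day 7 in red. The left plot shows the number of listed probes and the right plot the geometric mean of the deposited intensities over the 94 probes listed on all 24 arrays. The hatched bars A510 to A512 are lowest in both plots, at 200 to 296 probes and at intensities of 171 to 247.

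The arrays of each day resembled each other, by correlations that a shift of a whole array does not change. Across probes, which are not independent replicates, the log2 values of pairs of day 7 arrays correlated at 0.811 to 0.962 (median 0.896), and those of pairs of day 1 arrays at 0.840 to 0.966 (median 0.894). Pairs of 1 day 7 array and 1 day 1 array correlated at 0.767 to 0.921 (median 0.859). The median was 0.812 for day 7 arrays with sparse arrays and 0.871 for day 7 arrays with the other 3 day 1 arrays. Over the 138 probes listed on all 12 MI arrays, the median SD between arrays after scaling was 0.17 log2 units at day 7 and 0.21 at day 1. These 138 include the 94 scaling probes, whose mean was set equal on all arrays. Without the sparse arrays the day 1 value was 0.12. On the deposited scale the day 1 value was 0.45 with the sparse arrays and 0.14 without them.

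Between day 1 and day 7, 56 probes rose and 8 fell in MI left ventricle. A probe was tested when at least 3 arrays of each day listed it, which left 354 of the 876 probes listed on any MI array. Calls were made at an adjusted p under 0.05 in limma, a linear model that shares information on spread across probes. The 64 called probes were 18.1% of those tested, with 15.8% higher and 2.26% lower at day 7. An unadjusted p under 0.05 was reached by 116 probes. Among all 354 probes, 261 were higher and 93 lower at day 7, and the median log2 difference was 0.22. The rises thus stood against a general upward shift of the tested probes.

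The rises were moderate in size. They ranged from 1.23-fold to 2.57-fold with a median of 1.68-fold. Of the 56 probes, 11 rose over 2-fold, 39 rose 1.5-fold to 2-fold and 6 rose by less. The falls were smaller, from 1.21-fold to 1.96-fold with a median of 1.29-fold, and only the largest exceeded 1.5-fold.

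Probes that rose and probes that fell lay in different parts of the intensity range. The 8 probes that fell had geometric mean intensities of 233 to 466, all in the brightest of 4 equal classes of tested probes. The 56 that rose had a median of 102, against 107 over all tested probes. From the dimmest to the brightest class, 8, 21, 23 and 4 probes rose. The median log2 difference of all tested probes in these classes was 0.21, 0.39, 0.32 and -0.043. All 8 falling probes and 6 of the rising ones belonged to the 94 probes used for scaling, whose mean change was set to 0. Among the other 260 tested probes, 50 rose, 0 fell and the median log2 difference was 0.30. The ID series did not separate the directions. Of 197 tested R probes 35 rose and 4 fell, and of 157 RG probes 21 rose and 4 fell.

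**Figure D2:**
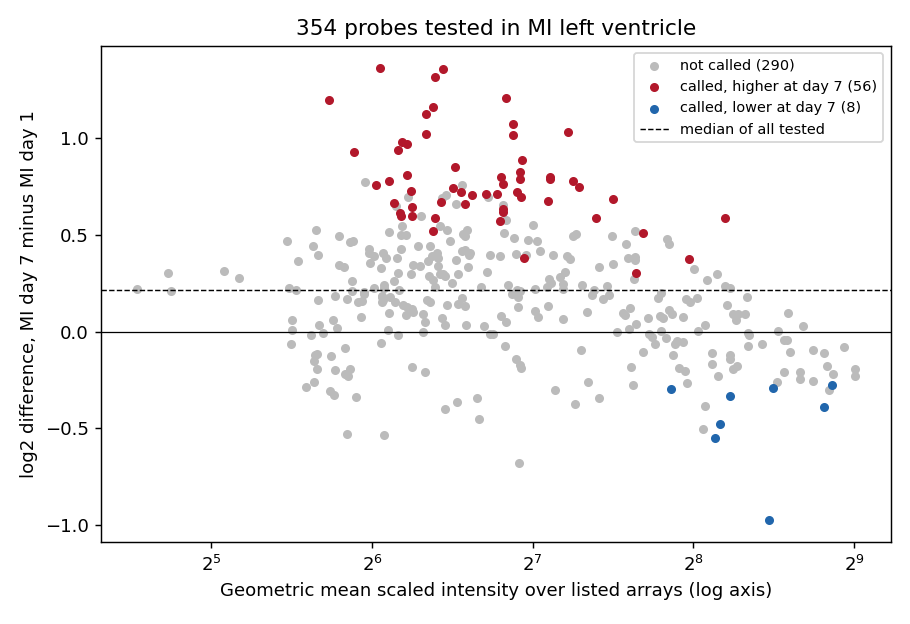
Each point is 1 of the 354 tested probes. The x axis is the geometric mean scaled intensity over the arrays that listed it, on a log axis, and the y axis the log2 difference of MI day 7 minus MI day 1. The 56 rising probes (red) lie mostly at middle intensities, the 8 falling probes (blue) at the bright end, and the dashed line marks the median of 0.22.

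Listing also differed between the directions. All 8 falling probes were listed on all 12 arrays, which held for 15 of the 56 rising probes. Of the rising probes, 44 were listed on all 6 day 7 arrays but 16 on all 6 day 1 arrays. There were 32 rising probes with only 3 or 4 day 1 values, and 7 with none from a sparse array. The groups did not overlap, with every listed day 7 value on 1 side of every listed day 1 value, for 32 of the 56 rising and 7 of the 8 falling probes. Over all tested probes this held for 47, or 13.3%, and those 47 include 8 that were not called.

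The changes can be followed array by array. For the 15 rising probes listed on all 12 arrays, the median log2 level relative to each probe's day 7 mean was -0.46 on A506, -0.39 on A537 and -0.47 on A538. On A510, A511 and A512 it was -0.64, -0.98 and -1.14. The 6 day 7 arrays lay between -0.20 and 0.14. All 6 day 1 arrays were thus below all 6 day 7 arrays, and the sparse arrays were farthest below. For the 8 falling probes the medians were 0.34, 0.33 and 0.23 on A506, A537 and A538, and 0.39, 0.47 and 0.54 on A510, A511 and A512. The day 7 arrays lay between -0.064 and 0.063. These probes were chosen by the same contrast, so the medians describe the calls and are no separate support for them.

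Probe R306 had the largest rise among probes at or above the lower quartile of intensity that were called both with all arrays and without the sparse ones. Its scaled intensities at day 7 ranged from 109.6 to 143 with a median of 116. At day 1 it was listed at 71.8 on A506, 37.9 on A537 and 42.3 on A538, and was blank on A510, A511 and A512. Every day 7 value lay above every listed day 1 value. The mean was 50.7 ± 18.4 (SD, n = 3) at day 1 and 122 ± 14.4 (SD, n = 6) at day 7, a 2.50-fold rise with a log2 difference of 1.32 (SE 0.18, limma adjusted p = 9.91e-05). Since no sparse array listed it, the difference was the same without them (limma adjusted p = 7.41e-05). As deposited the log2 difference was 1.14 (SE 0.23, limma adjusted p = 0.00573).

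Probe RG433 was the second of these. At day 7 its scaled intensities ran from 183 to 281 with a median of 227. At day 1 they were 109.6 on A506, 128 on A510, 104 on A512, 104 on A537 and 99.2 on A538, and A511 left it blank. The groups did not overlap, and of the 2 sparse values 1 was the highest and 1 the second lowest at day 1. The mean went up from 109 ± 11.3 (SD, n = 5) to 232 ± 41.5 (SD, n = 6), a 2.11-fold rise with a log2 difference of 1.07 (SE 0.20, limma adjusted p = 0.00125). Without the sparse arrays the log2 difference was 1.13 (SE 0.24, limma adjusted p = 0.0134).

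Probe R630 had the largest fall. At day 7 its scaled intensities ranged from 181 to 306 with a median of 251, and at day 1 from 389.6 to 575 with a median of 471. The sparse arrays gave 389.6, 490.0 and 575, and the other day 1 arrays 519.6, 404 and 453. All 6 day 1 values lay above all 6 day 7 values, and sparse and other arrays were interspersed. The level was 1.96-fold lower at day 7, at 242 ± 44.7 against 472 ± 70.5 (SD, n = 6 each). The log2 difference was -0.97 (SE 0.18, limma adjusted p = 0.000917). Without the sparse arrays the difference was -0.94 (SE 0.22, limma adjusted p = 0.0216). With random effects for the runs of title numbers described below, it was -0.93 and did not pass (limma adjusted p = 0.0807).

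Probe R689 was the second largest fall. Its scaled intensities ranged from 193 to 254 with a median of 229 at day 7, and from 301 to 366 with a median of 327 at day 1. The groups did not overlap. The level was 1.47-fold lower at day 7, at 227 ± 23.3 against 332 ± 27.0 (SD, n = 6 each). The log2 difference was -0.55 (SE 0.14, limma adjusted p = 0.00877). Without the sparse arrays the difference stayed at -0.56 (SE 0.18) but did not pass (limma adjusted p = 0.0645). As deposited it was -0.44 (SE 0.23) and did not pass either (limma adjusted p = 0.332).

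**Figure D3:**
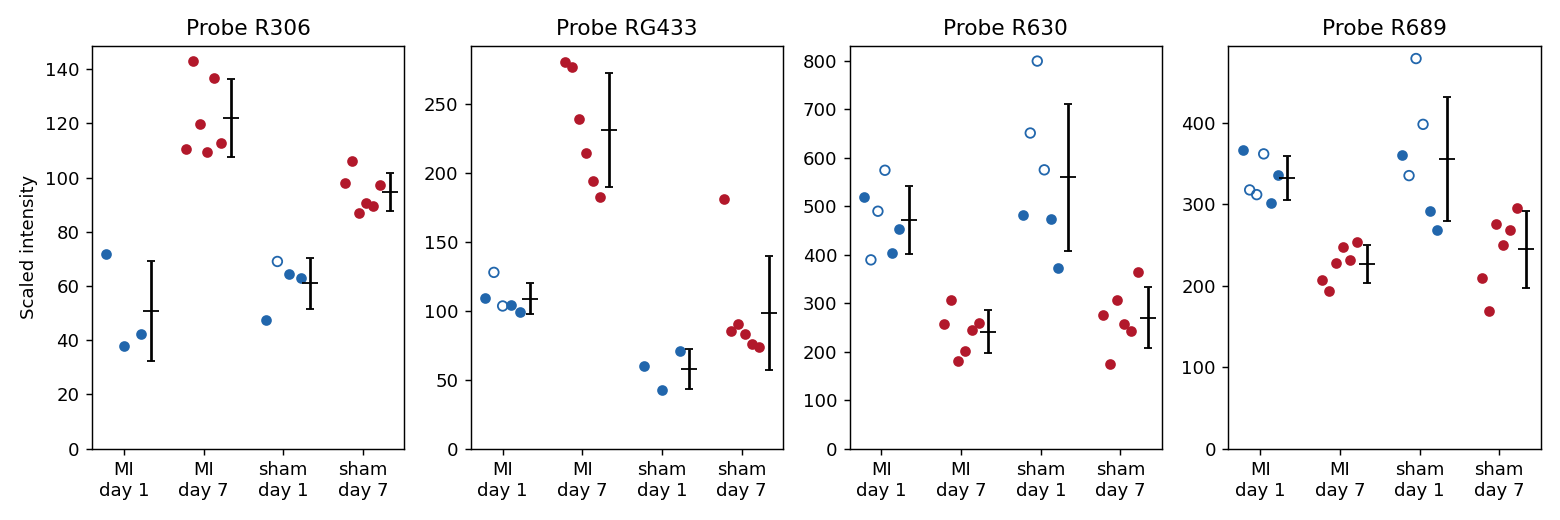
Points are scaled intensities of single arrays for probes R306, RG433, R630 and R689 in the 4 groups, with day 1 in blue and day 7 in red. Open circles are arrays that listed under 300 probes, and the black bars give the mean ± SD of each group. In MI the days do not overlap for any of the 4 probes.

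Probe R418, chosen after its values were seen, had too few day 1 values outside the sparse arrays for the minimum of 3. It was listed at 53.7 on A506, 53.0 on A510, 52.8 on A512 and 53.9 on A538, and was blank on A511 and A537. The day 7 values ranged from 109.4 to 162 with a median of 142. Sparse and other day 1 arrays thus gave nearly the same scaled level, and the days did not overlap. Its mean was 53.3 ± 0.538 (SD, n = 4) at day 1 and 138 ± 23.3 (SD, n = 6) at day 7, a 2.56-fold rise with a log2 difference of 1.36 (SE 0.18, limma adjusted p = 0.000208). When the sparse arrays were left out and 2 values were enough, the difference was 1.35 (SE 0.24, limma adjusted p = 0.00716).

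Without A510, A511 and A512, 5 probes were higher and 1 was lower at day 7, 1.93% of the 311 that could still be tested. All 6 were among the 64 called with all arrays. A probe then needed a value on each of A506, A537 and A538. Besides R306, RG433 and R630 they were R017, R469 and RG303, which are named because the count is small. R017 was blank on the sparse arrays, at 55.6, 46.7 and 29.6 on A506, A537 and A538. It reached 93.1 to 149 at day 7, a 2.57-fold rise with no overlap (log2 difference 1.36, SE 0.20, limma adjusted p = 0.000398). R469 was at 111, 67.4 and 51.2 on the same 3 arrays and at 125 to 183 at day 7, a 2.05-fold rise (log2 difference 1.04, SE 0.22, limma adjusted p = 0.0134). RG303 was at 79.0, 75.6 and 55.6 and at 88.6 to 144, a 1.61-fold rise (log2 difference 0.69, SE 0.17, limma adjusted p = 0.0357). In each of the 3 the day 7 values lay above all of these day 1 values. The spread in this fit was still estimated with the sparse sham arrays A507 to A509 included. With these left out too, 26 of the same 311 probes were called, 23 higher and 3 lower. The median log2 difference was 0.12 both times. The count of 6 also depended on single arrays. It was 23 without A504, 19 without A506, 12 without A537 and 2 without A538. With a day 1 array left out, only 2 day 1 arrays remained and 2 values per group were required.

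Directions were kept more often than calls when the sparse arrays were left out. Of the 56 rising probes 44 could be tested, and all 44 were still higher at day 7. Of these, 5 passed and 36 had an unadjusted p under 0.05. The 8 falling probes were all still lower, with 1 passing and 7 at an unadjusted p under 0.05. All these probes had been called with the same day 7 arrays and with A506, A537 and A538 included. Their kept directions and low unadjusted p are therefore no separate support. Over all 311 probes, 65 had an unadjusted p under 0.05, with 54 higher and 11 lower at day 7. The adjusted p of 11 probes was 0.0520, just over the threshold. The rises were smaller, with a median log2 difference of 0.57 against 0.74 for the same 44 probes with all arrays. They were smaller in 32, equal in 7 and larger in 5. For the falling probes the median was -0.29 against -0.36.

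The size of the rises could be set against each set of 3 day 1 arrays for 16 rising probes listed on all 6. Their median log2 difference was 0.89 against the sparse arrays and 0.50 against the others. For the 8 falling probes it was -0.47 and -0.29. The overall median depended on the scale as well. As deposited it was 0.22 with all arrays and -0.060 without the sparse ones, and after scaling it was 0.22 and 0.12. Over the 94 scaling probes the median was -0.0037 with all arrays and -0.0054 without the sparse ones, and over the other tested probes it was 0.30 and 0.18. How far the low listing of the sparse arrays enters the rises was not tested.

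**Figure D4:**
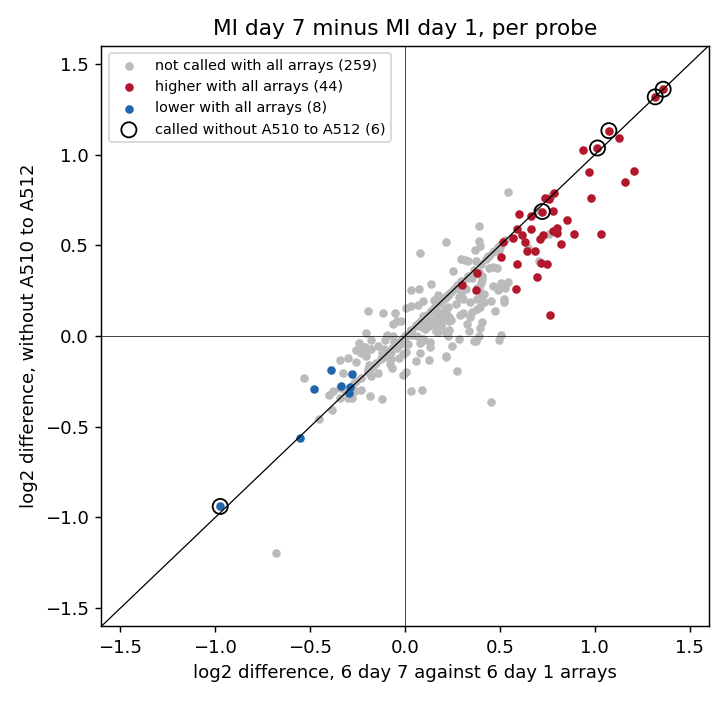
Each point is 1 of the 311 probes tested both ways. The x axis is the log2 difference of MI day 7 minus day 1 with all 12 arrays and the y axis the difference without A510 to A512, with the line of equality drawn. Of the 44 red points (higher with all arrays) 32 lie below the line, and the 6 circled probes were called both ways.

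The number of calls depended on the treatment of the arrays. On the deposited scale 10 probes were called (2.82%), 9 higher and 1 lower, all of them among the 64. Scaling by the 138 probes listed on all MI arrays, in a fit of the 12 MI arrays alone, gave 35 higher and 13 lower in place of 56 and 8. With the 12 MI arrays alone and the scaling unchanged, 52 were higher and 6 lower. The array titles carry numbers, whose meaning the labels do not give. The numbers run without a gap from A501 to A520 and from A535 to A538. The first sequence held all 6 day 7 MI arrays and 4 of the day 1 MI arrays, A506 and the 3 sparse ones. Between these MI arrays, 50 of 214 probes were called, 39 higher and 11 lower at day 7. The spread in that fit was still estimated with the sham arrays A535 and A536 of the second sequence included. With the 2 sequences as a fixed block, chosen after seeing the data, 110 of 354 were called, 89 higher and 21 lower, including 57 of the 64. The second sequence held only day 1 arrays, none of them sparse, and the first held all the sparse ones. The block thus overlaps with the split into sparse and other day 1 arrays. How far this enters the count of 110 was not tested. Cutting the sequences also where the day changes gave 4 runs of 1 day each, so that runs and days are nested by construction. With these runs as random effects, 4 probes were called, R306, RG433, R017 and R418, all higher at day 7.

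Part of the change between the days was also seen in sham hearts. There 24 of 322 probes (7.45%) were called, 6.52% higher and 0.932% lower at day 7, but 1 as deposited. Without the 6 sparse arrays of both operations, 0 of 305 passed in limma and 65 had an unadjusted p under 0.05. Of the 56 probes that rose in MI, 44 could be tested in sham. Of these, 42 were higher at day 7 in sham too, against 68.4% of all 275 probes tested in both operations, and 8 passed. Their median log2 difference was 0.72 in MI and 0.45 in sham. In sham the log2 difference was 0.65 for R306, 0.72 for RG433, 0.79 for R469 and 0.50 for RG303. In MI it was 1.32, 1.07, 1.01 and 0.72 in the same order. R306 and R469 passed in sham (limma adjusted p = 0.0224 each). RG433 and RG303 did not (limma adjusted p = 0.0588 and 0.0549). R017 and R418 had 2 sham day 1 values each, too few for the minimum of 3. The 8 falling probes were all lower in sham as well, 2 of them passing, with medians of -0.36 in MI and -0.25 in sham. The 2 were R630, at -1.04 in sham (limma adjusted p = 0.00123) and -0.97 in MI, and R689. R689 was at -0.54 in sham (limma adjusted p = 0.0224) and -0.55 in MI. Of the 8, 7 had a larger difference in MI than in sham. These probes were picked by their difference in MI, so the larger median in MI is no test. MI and sham share no arrays, but 3 of the 6 sham day 1 arrays were sparse too. Without all 6 sparse arrays, 32 of 37 rising probes were higher in sham, against 66.0% of all 247 tested, with medians of 0.56 in MI and 0.37 in sham. Of the 8 falling probes 6 were then lower in sham, with medians of -0.29 in MI and -0.15 in sham.

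A difference between the operations was not detected for any probe. The change between days in MI minus that in sham was tested directly in limma, and 0 of 275 probes passed, with 12 at an unadjusted p under 0.05 and a smallest adjusted p of 0.723. The positive value with the smallest p was that of R306, at 0.67 (SE 0.23, adjusted p = 0.723). In sham it went from 61.0 ± 9.39 (SD, n = 4) at day 1 to 94.7 ± 7.04 (SD, n = 6) at day 7, less than in MI, but this difference did not pass. The negative value with the smallest p was that of R592, at -0.65 (SE 0.21, adjusted p = 0.723). In MI it was at 213 ± 21.5 at day 1 and 212 ± 10.9 at day 7 (SD, n = 6 each), and in sham it went from 133 ± 41.9 to 201 ± 13.9 (SD, n = 6 each). Its sham day 1 values were 112, 90.6 and 91.4 on the sparse arrays A507 to A509 and 179, 145 and 183 on the others. Without the 6 sparse arrays its value was -0.27 (SE 0.14, adjusted p = 0.758), and that of R306 was 0.61 (SE 0.23, adjusted p = 0.758). With 6 arrays a group, a probe that misses this test is not shown to change alike in both operations.

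**Figure D5:**
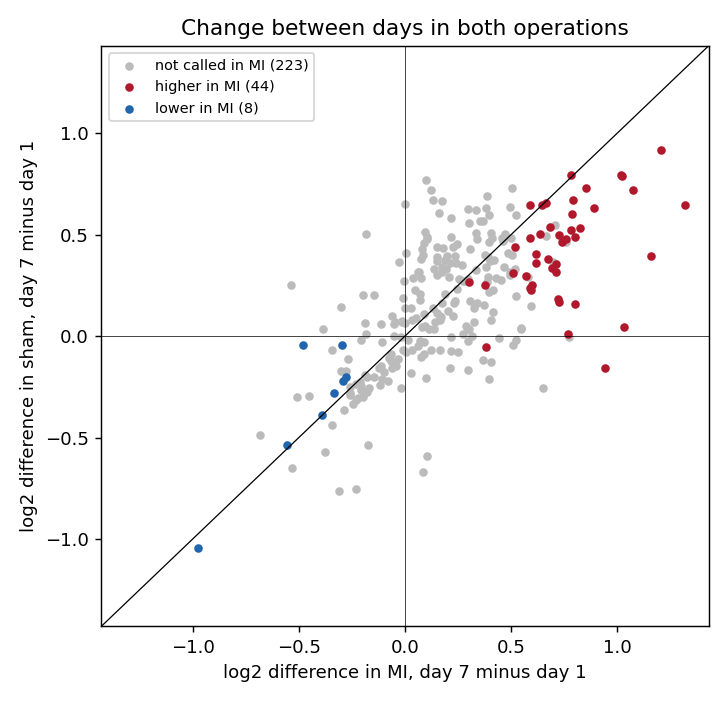
Each point is 1 of the 275 probes tested in both operations. The x axis is the log2 difference of day 7 minus day 1 in MI and the y axis the same in sham, with the line of equality drawn. Of the 44 red points (higher at day 7 in MI), 42 lie above 0 on the sham axis, and all 8 blue points (lower in MI) lie below it.

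Blank cells were compared by counts alone. There were 138 probes listed on all 12 MI arrays and 308 listed on none. Listed at day 7 only were 201 probes, and at day 1 only 30. Without the sparse arrays these were 219 and 24, but then 6 day 7 arrays stood against 3 day 1 arrays. The unequal numbers by themselves favour listing at day 7 only. On all 6 day 7 arrays and on no day 1 array were 4 probes, with a median deposited level of 77.1 at day 7, and 0 probes had the reverse. The probes listed on all 12 arrays were brighter, with a median of 242 at day 7. Probes listed mainly on 1 day could not enter the test of levels, so the 64 calls cover only transcripts measured on both days.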

How the data were processed

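The deposited table holds intensity values that the authors made and scaled per array. How arrays were scanned, corrected for background and scaled, and when a cell was left blank, is not given in the sources used here. Groups were taken from the titles, and 0 columns belonged to another series. The members and tests were chosen with earlier results of these data known.

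Probe R371, constant on all arrays, was left out. The log2 values computed from the deposited intensities were shifted per array to an equal mean over the 94 probes listed on all 24 arrays. Means of the 4 groups were estimated jointly from the 24 arrays in limma 3.58.1 under R 4.3.3 (lmFit, then eBayes). Adjusted p-values are Benjamini-Hochberg values over all tested probes. Levels are means ± SD of scaled intensities, n being the arrays that listed the probe, and fold changes are ratios of geometric means. The fit was tested on simulated data with independent noise on each array. The simulation did not cover shifts of whole arrays or correlation within runs of title numbers. No pair of arrays was identical (0 pairs). The number of arrays limits the precision.

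The rule for naming took, among called probes at or above the lower quartile of mean log2 intensity, 2 up and 2 down by size that were also called without A510 to A512, filled up from those called with all arrays, and 1 probe each way by p for the difference between operations. Other probes are named as chosen after their values were seen. Alternatives covered scaling, arrays, the minimum of listed values, the fit, runs of title numbers, dim probes and the log transform.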

Additional observations from a re-analysis of the deposited data

How the results depend on the processing

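The count of 64 called probes, with 44 to 76 when 1 MI array was left out, changed by over 1.5 times under these settings. It was 10 as deposited, 19 with quantile normalization, 27 with a minimum of 6 listed values, where only 138 probes were tested, 4 with random effects for the runs of title numbers and 26 with finer runs, and 110 with a fixed block for the 2 unbroken sequences. It was 6 without A510 to A512, 26 without A507 to A512 of both operations, 3 without A510 to A512 as deposited, 19 without them scaled by the complete probes of the other arrays, and 14 without them at a minimum of 2 listed values. Some of these settings also had fewer arrays or fewer probes tested, and why the counts differ was not tested. The finer runs, the fixed block, the minimum of 2 without A510 to A512 and the settings of the count of 6 were chosen after seeing the data.

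The median log2 difference of 0.22 (0.18 to 0.25 with 1 array left out) was 0.38 with quantile normalization, 0.13 scaled by the complete probes of the MI arrays, 0.086 with a minimum of 6 values and 0.14 with A510 to A512 as the only day 1 arrays. It was 0.12 without A510 to A512 or without A507 to A512, 0.13 without A510 to A512 scaled by the other arrays, 0.14 without them at a minimum of 2 values, and turned to -0.060 without them as deposited. The count of 6 without A510 to A512 was 3 as deposited, 19 with the complete probes of the other arrays, and 2 to 23 with a further array left out. The sham count of 24 was 1 as deposited, 1 with quantile normalization and 0 without A507 to A512 (65 at an unadjusted p under 0.05 in limma). The difference in listed probes was 155 to 220.3 with 1 array left out and 72.7 without A510 to A512, where it did not pass. The difference between operations gave 0 called probes under all 10 alternatives run. R306, R017 and R418 passed under each alternative in which single probes were followed. R306 and R017 had only 3 day 1 values, so at a minimum of 3 they could not be tested without A506, A537 or A538. Leaving out A510 to A512 did not change their values. With A538 left out as well, 2 of the 6 probes called without A510 to A512 were still called, and single probes were not followed there. R630 failed with random effects for the runs, R689 under 8 of 32 alternatives, RG433 under 1, R469 under 3 and RG303 under 4, and none of the named probes changed direction. No paired analysis was run, because the labels give no pairing of arrays between the days.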

Other observations

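In 18 groups of MI values (4 to 6 arrays that listed a named probe, and the numbers of listed probes), 0 held a single array standing apart by Dixon's criterion. The criterion was applied to scaled intensities, and to counts for the listed probes. Chance would give about 1 in 20 for groups not chosen by their values. The named probes were picked from these same values, so that rate need not hold and the 0 is no test.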
